A study of Mus musculus with 2 samples.

Results

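The imprinted Dlk1-Dio3 region of mouse chromosome 12 carries one of the largest groups of microRNA genes in the mouse genome, and its members were read here in heart tissue. The members were 37 listed gene symbols on chromosome 12. Their gene identifiers were matched through the GENCODE M21 annotation of build mm10, and all 37 were found among the 2202 microRNA genes of the deposited tables. All lie on the plus strand, between positions 109585789 and 109743795, a span of 158 kb. The choice used names and position and no measured level, but earlier results of these data were known when it was made.

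Hearts of adult female mice, 8 to 10 months old and of the strain label 5xFAD/CAST, were the source of the small RNA, whose labelled size lay under 30 with no unit stated. The 5xFAD line is a mouse model of Alzheimer disease whose transgenes are driven by the neuronal Thy1 promoter. CAST is an inbred strain of wild origin. The labels do not say which parent was CAST or whether the sampled animals carried the transgene. There was 1 group of 2 libraries and no control group. The labels call the libraries biological replicates but give them a single donor identifier, so the spread between them may be technical. With 1 library on each side, the p-values below set a difference against the error of counting reads and not against the spread between samples.

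The region is imprinted, which means that the parental chromosomes are used differently. In mouse the microRNAs, together with the long noncoding RNAs Meg3, Rian and Mirg and many small nucleolar RNAs, come from the maternal chromosome, whereas the protein-coding genes Dlk1, Rtl1 and Dio3 are expressed from the paternal one. The microRNA genes are thought to be cut from long transcripts that run through the region, and they are best known from embryo, placenta and brain. A microRNA gene makes a hairpin precursor, from which one or both arms (5p and 3p) become the mature microRNA, and the seed, bases 2 to 8 of the mature strand, does most of the pairing with target messages. The counts were made per gene, so neither the arms nor the parental alleles were separated.

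The mature sequences of the 10 members with the highest mean level are shown because they carried most of the counts. They come from RefSeq (build GRCm38.p6, the assembly also called mm10), are written 5′ to 3′, and have the seed in capitals.
miR-127-5p: cUGAAGCUcagagggcucugau
miR-127-3p: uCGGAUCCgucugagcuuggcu
miR-411-5p: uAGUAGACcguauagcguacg
miR-411-3p: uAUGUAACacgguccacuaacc
miR-541-5p: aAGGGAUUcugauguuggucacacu
miR-541-3p: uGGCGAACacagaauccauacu
miR-379-5p: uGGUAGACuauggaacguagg
miR-379-3p: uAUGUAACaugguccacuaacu
miR-433-5p: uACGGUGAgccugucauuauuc
miR-433-3p: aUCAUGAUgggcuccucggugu
miR-154-5p: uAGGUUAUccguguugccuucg
miR-154-3p: aAUCAUACacgguugaccuauu
miR-382-5p: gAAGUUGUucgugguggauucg
miR-382-3p: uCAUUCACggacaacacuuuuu
miR-487b-5p: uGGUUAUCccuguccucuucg
miR-337-5p: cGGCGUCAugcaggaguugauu
miR-337-3p: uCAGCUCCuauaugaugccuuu
miR-431-5p: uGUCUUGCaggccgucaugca
miR-431-3p: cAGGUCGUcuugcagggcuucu

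The reference held 71 mature sequences for the 37 members, with both arms for 34 of them. These 71 sequences had 68 distinct seeds, so most members do not share a seed within the region. The 3 seeds held by a pair of members joined Mir379 with Mir411 through their 3p arms, Mir494 with Mir410 through their 5p arms, and Mir376c with Mir376b through their 5p arms. The lower 2 of these pairs are shown because they share a seed, in capitals.
miR-494-5p: aGGUUGUCcguguugucuucuc
miR-410-5p: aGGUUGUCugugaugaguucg
miR-376c-5p: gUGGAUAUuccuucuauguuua
miR-376b-5p: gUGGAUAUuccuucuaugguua

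The pairs differed widely in gene level, in which the arm with the shared seed was not separated from the other arm. Mir379 and Mir411 together had 381 CPM (the reads of a gene per 1000000 reads assigned to microRNA genes) in replicate 1 and 337 CPM in replicate 2. Mir376b and Mir376c summed to 10.0 and 12.2 CPM, and Mir410 and Mir494 to 4.30 and 4.52 CPM.

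Seeds of members also occurred in genes outside the list. Of the 68 seeds, 11 were shared with a mature sequence of a gene that is no member. Most of those genes had no count in either library. The exceptions were Mir362, whose 3p arm has the seed ACACACC of miR-329-3p, at 25.8 and 17.0 CPM, Mir672, whose 5p arm has the seed GAGGUUG of miR-377-5p, at 13.1 and 14.2 CPM, and Mir1193 in the same region. As a whole gene, Mir362 thus stood above Mir329, which had 6.69 and 6.95 CPM in replicates 1 and 2.

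Together the members had 9175 counts in replicate 1 and 5845 in replicate 2. That was 0.219% of the 4186560 microRNA gene counts of replicate 1 (exact Clopper-Pearson 95% interval 0.215 to 0.224) and 0.203% of the 2877511 of replicate 2 (0.198 to 0.208), with a mean of 0.211% ± 0.0113 (SD, n = 2). The labels name no molecular identifiers, so intervals describe the error of counting reads and no other error. Reads that fitted several loci, 42.4% and 43.2% of all reads, were assigned to no gene, so shares and ranks refer to reads unique to a locus. All 37 members had at least 1 count in each library, and 32 reached 1 CPM in both. The 5 that did not were Mir665, Mir136, Mir758, Mir495 and Mir377. A count of 0 would allow up to 3 counts, which is 0.717 CPM in replicate 1 and 1.04 CPM in replicate 2.

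The region was detected broadly but at modest levels. The 32 detected members had a median level of 17.3 CPM, against 34.2 CPM over all 380 genes detected in both libraries, and 9 of the 32 were above that value. Levels among the members were very uneven, as the plot by genomic order shows. Mir127 took 41.3% of the member counts of replicate 1 (exact 95% interval from 40.2 to 42.3). In replicate 2 it took 41.5% (from 40.2 to 42.7). Its level was 80.5 times that of the median member in replicate 1 and 97.0 times in replicate 2. The 5 highest members, Mir127, Mir411, Mir541, Mir379 and Mir433, held 72.7% and 75.0% of the member counts, a mean of 73.8% ± 1.63 (SD, n = 2).

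**Figure D1:**
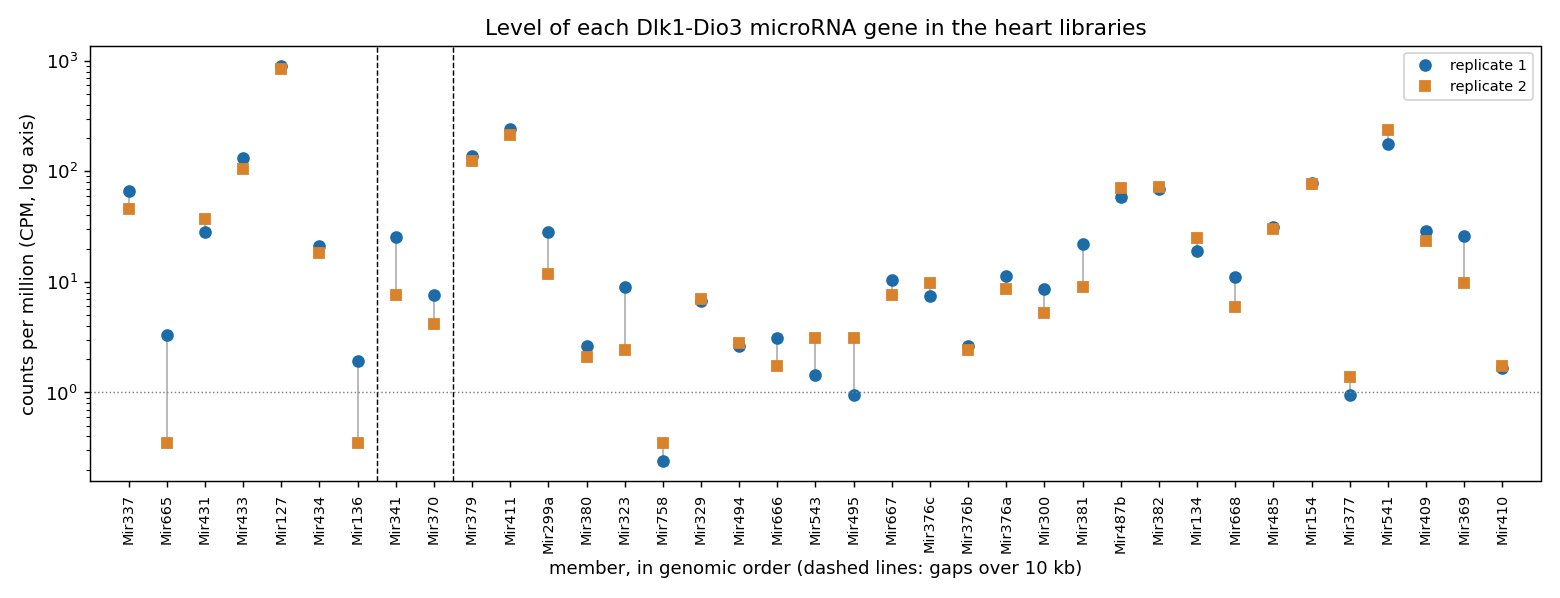
Level of each of the 37 members in CPM (log axis), in genomic order, with a circle for replicate 1 and a square for replicate 2 and dashed lines where neighbouring members are more than 10 kb apart. Mir127 stands highest, at 904 and 842 CPM, and 5 members have a point below the dotted line at 1 CPM.

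**Figure D2:**
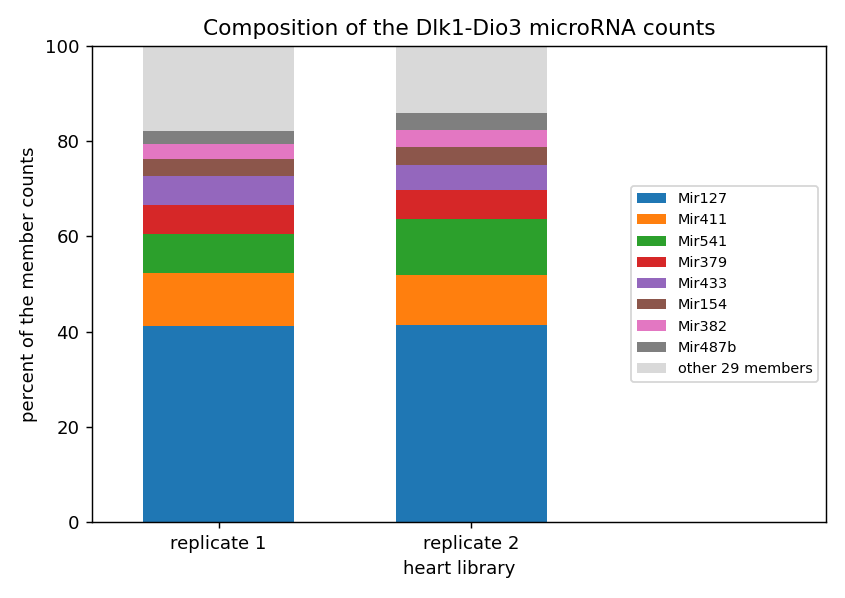
Share of the member counts held by the 8 members with the highest mean level and by the other 29, as stacked bars for each library (percent, summing to 100). Mir127 fills 41.3% of the first bar and 41.5% of the second.

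Split at gaps over 10 kb, the members fell into 3 segments, of 7, 2 and 28 genes. The first ran from Mir337 to Mir136 over 9.60 kb, the second held Mir341 and Mir370 in 6.84 kb, and the third ran from Mir379 to Mir410 over 34.7 kb. The gap between the second and the third was 90.7 kb. The first segment held 52.2% ± 0.820 of the member counts and the third 46.7% ± 1.48 (SD, n = 2), although the third has far more genes. The second held 1.51% in replicate 1 (exact 95% interval from 1.28 to 1.79). Its share of replicate 2 was 0.582% (from 0.403 to 0.812). Across all 37 members, level and position were barely related (Spearman's rho -0.03, a description over genes that share libraries).

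**Figure D3:**
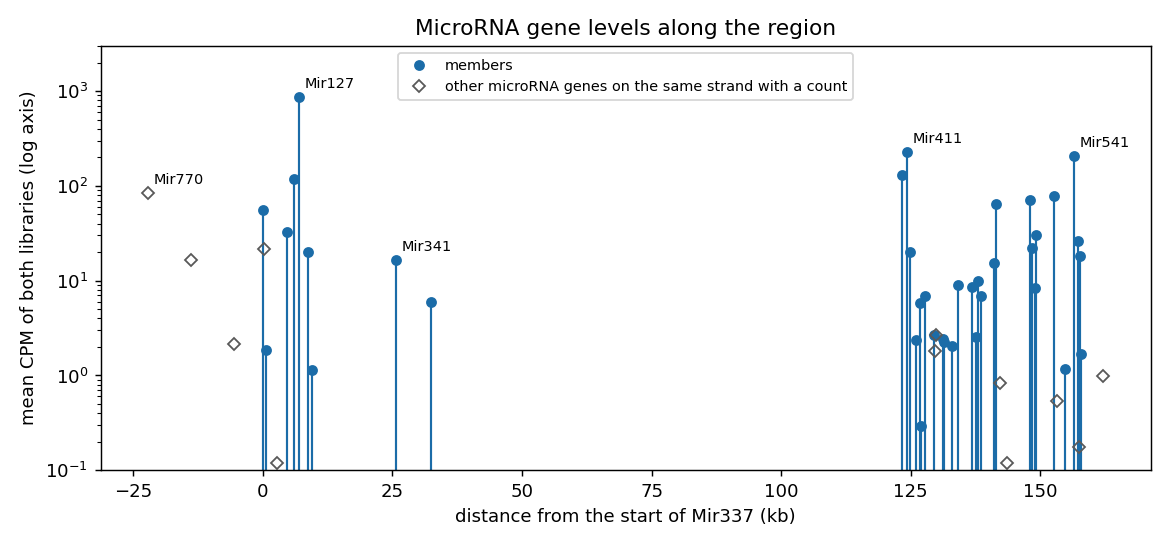
Mean level of both libraries in CPM (log axis) against the distance in kb from the start of Mir337, with filled circles for the members and open diamonds for other microRNA genes of the same strand that had a count. High and low levels lie close together in places, while the 13 members from Mir380 to Mir300 reach at most 11.2 CPM in either library. Mir770 lies left of the members at a mean of 83.8 CPM.

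In the first segment, 5 genes lie opposite the coding sequence of Rtl1, a retrotransposon-derived gene needed in the placenta and in fetal muscle. These are Mir431, Mir433, Mir127, Mir434 and Mir136, and they made up 49.6% and 49.4% of the member counts. Both mature strands of each of the 5 pair without a mismatch to the annotated Rtl1 transcript, which follows from the overlap, and 10 sites were found in all. The site of miR-127-3p is shown because Mir127 led the region. It lies at bases 2642 to 2663 of that transcript of 6358 bases and reads, as DNA on the strand of Rtl1, 5′ to 3′, as follows.
site of miR-127-3p: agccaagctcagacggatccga

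Mir127 (chromosome 12, 109592846 to 109592915) had 904 CPM in replicate 1 and 842 in replicate 2, a mean of 873 ± 43.6 (SD, n = 2) and rank 66 of all 2202 genes. Its hairpin is given with both mature arms in capitals, since no other member came near its level.
Mir127 hairpin: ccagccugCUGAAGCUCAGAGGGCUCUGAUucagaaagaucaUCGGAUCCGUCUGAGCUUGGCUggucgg
Mir433 (109591715 to 109591838) followed within the segment with 132 and 105 CPM. Mir337 (109585789 to 109585885), at the start of the segment and outside Rtl1, had 66.9 and 45.9 CPM. Mir431 had 28.4 and 36.8 CPM, and Mir434 had 21.3 and 18.4 CPM. The lowest members here were Mir665, with 14 and 1 counts, and Mir136, with 8 and 1 counts. So genes that share one antisense stretch of Rtl1 spanned from 1.13 CPM for Mir136 to 873 CPM for Mir127 in the mean of both libraries.

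The second segment lies in introns of Rian, a long noncoding RNA. Mir341 had 25.6 CPM in replicate 1 and 7.65 CPM in replicate 2, and Mir370 had 7.64 and 4.17 CPM. Behind these values stood 107 and 22 counts for Mir341 and 32 and 12 counts for Mir370, the shallowest base of the 3 segments.

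The third segment opened with a pair of abundant genes. Mir379 (109709060 to 109709125) had 137 and 125 CPM, and Mir411 (109710175 to 109710256) had 244 and 212 CPM. The next gene, Mir299a, had 28.2 and 11.8 CPM. The 13 genes that followed, from Mir380 to Mir300, reached at most 11.2 CPM in either library. Mir323 had 9.08 and 2.43 CPM, and Mir494, studied in the ischaemic heart, had 2.63 and 2.78 CPM. Mir758 was the lowest member of all, with 1 count in each library. The Mir376 genes stood at 7.40 and 9.73 CPM for Mir376c, 2.63 and 2.43 for Mir376b, and 11.2 and 8.69 for Mir376a.

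Levels were higher again from Mir381 on. Mir381 had 22.0 and 9.04 CPM, and Mir487b (109727333 to 109727414) had 58.3 and 70.2 CPM. The last 10 members lie within the annotated noncoding gene Mirg, 7 overlapping its exons and 3 in its introns. Of the exonic ones, Mir382 had 70.0 and 72.6 CPM, Mir485 had 31.5 and 29.9, Mir134, known for acting at dendrites of neurons, had 18.9 and 25.0, and Mir369 had 26.3 and 9.73. Mir668 had 11.0 and 5.91 CPM, while Mir377 and Mir410 stayed under 2 CPM in both libraries. Of the intronic ones, Mir541 (109742409 to 109742498) had 176 and 238 CPM, Mir154 (109738433 to 109738498) had 79.3 and 77.2, and Mir409 had 28.7 and 23.6. Mir541 and Mir377 are neighbours in the list, and their means were 207 and 1.17 CPM. The order at the top of this segment depended on the library, since Mir411 was above Mir541 in replicate 1 and below it in replicate 2.

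In all, 18 members had a mean of 10 CPM or more, and 5 of them 100 CPM or more. The other 19 ranged from 0.293 to 9.96 CPM. Precursor sequence may set a limit for a few members. Of the 37 precursors, 5 share a run of 18 or more bases with the precursor of another annotated microRNA gene at another locus. These are Mir376b and Mir376c, which share 31 bases with each other, Mir411 and Mir758, which share 21, and Mir487b, which shares 20 with Mir376b. Reads from a shared run may have been set aside as fitting several loci. None of these exact runs covers a whole mature arm held in the reference, which lacks an arm of Mir376c and of Mir487b. The aligner and the mismatches it allowed are not given, and the 5p arms of Mir376b and Mir376c are nearly alike. Whether reads of a full arm were lost was not tested. For these 5 genes the counts may be lower limits, whereas a CPM over assigned reads is not a limit.

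At 6 members a second annotated microRNA gene lies on the opposite strand. They are Mir337, Mir136, Mir299a, Mir380, Mir376a and Mir409. All reads at these 6 loci were on the strand of the member, 584 in replicate 1 and 266 in replicate 2, and the opposite genes had none in either library. When strand is ignored the same 6 members are listed at 0, because a read that overlaps both genes is then counted for neither. At the 31 members without such a partner, 1 read in replicate 1 and 0 in replicate 2 lay on the opposite strand.

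The annotation has 24 more microRNA genes between the first and the last member, 17 on the same strand and 7 on the opposite one. Of these, 16 had no count in either library, and 3 reached 1 CPM in either. Mir540, next to Mir337, had 20.5 and 22.6 CPM, Mir1193 had 2.87 and 2.43, and Mir679 had 1.91 and 1.74. Mir1193 shares its 5p seed with miR-379-5p. Within 30 kb outside the members, Mir770, inside Meg3, had 81.7 and 85.8 CPM, Mir673 had 17.9 and 14.9, Mir493 had 0.478 and 3.82, and Mir3072 had 0.955 and 1.04. These 4 genes were added after their values were seen.

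The libraries were then compared gene by gene, to ask how closely the levels of the members were repeated. Each gene was tested with an exact binomial test on its reads, two-sided and with Benjamini-Hochberg adjustment over the 309 genes with enough reads. Such a test compares these libraries and not conditions. Among all 309 genes, 63.4% passed the test. In replicate 2, 35.3% were higher and 28.2% lower. The filter asked for enough reads in both libraries, and 25 of the 37 members passed it. Of those 25, 9 differed (36.0%), 3 higher and 6 lower, and 16 did not pass. The tested members had fewer reads than most genes tested, with a median of 21.9 CPM against 64.2 CPM, and the test has less power at lower counts.

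Among the 25, 18 lay within 1.5-fold (72.0%, against 55.0% of all genes tested) and 4 differed more than 2-fold (16.0% against 18.4%). Their median log2 ratio, replicate 2 over replicate 1 with TMM scaling, was -0.14, beside 0.01 over all genes tested. The summed counts of all members had a log2 ratio of -0.04 (exact 95% interval -0.09 to 0.01). With DESeq2's size factors it was -0.19 (-0.23 to -0.14) and with plain totals -0.11 (-0.16 to -0.06), so whether the interval holds 0 depends on the scaling. The first and the third segment had -0.07 (-0.14 to -0.00407) and 0.03 (-0.04 to 0.10). The sign of the third turned with the other scalings, to -0.12 (-0.19 to -0.05) with DESeq2's size factors and -0.045 (-0.11 to 0.02) with plain totals. The second segment stood at -1.42 (-2.005 to -0.87), on 139 and 34 counts. Spearman's rho of CPM between the libraries was 0.94 over the 37 members, a description across genes of one region.

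**Figure D4:**
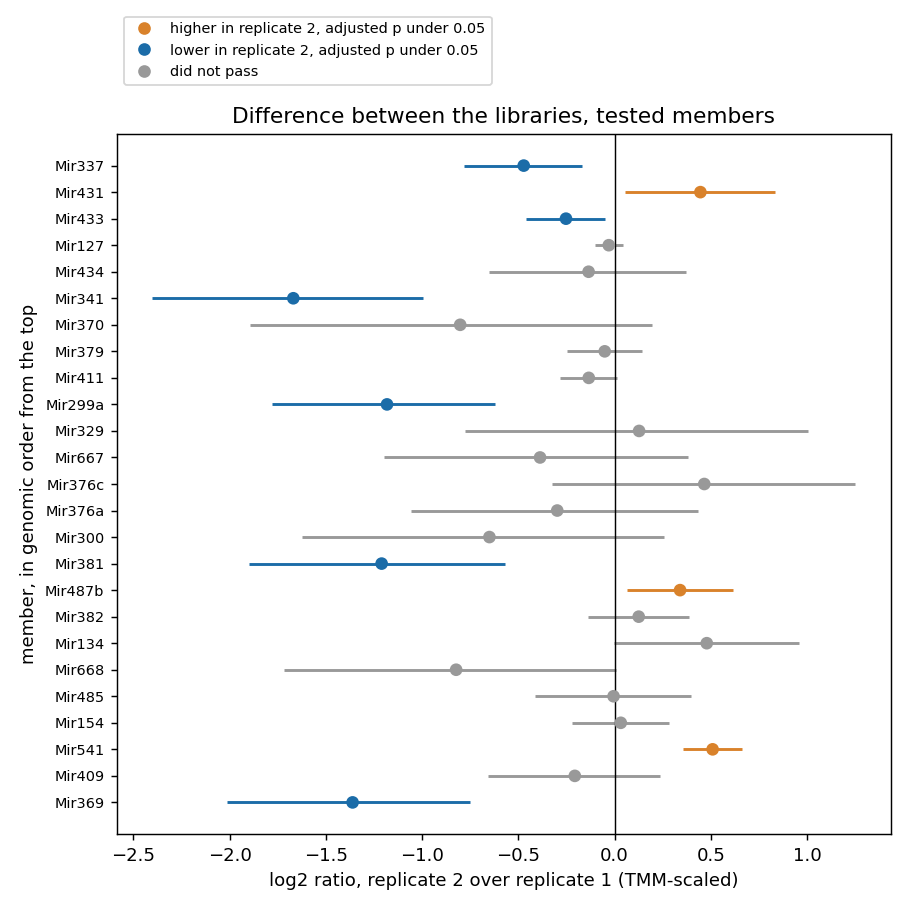
Log2 ratio of replicate 2 over replicate 1 for the 25 tested members in genomic order, with points for the ratio and lines for its exact 95% interval, coloured by the outcome of the binomial test. Mir541 is the highest at 0.51, and Mir341 the lowest at -1.67.

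Of the 5 most abundant members, Mir127 (log2 ratio -0.03, exact 95% interval -0.10 to 0.04, binomial test, adjusted p = 0.514), Mir411 (-0.13, adjusted p = 0.107) and Mir379 (-0.05, adjusted p = 0.707) did not pass. Mir541 was higher in replicate 2, with 737 counts in replicate 1 and 686 in the shallower replicate 2 (0.51, exact 95% interval 0.36 to 0.66, adjusted p = 1.12e-10). Mir433 was lower (-0.25, exact binomial test, adjusted p = 0.0237). Mir431 (0.45, adjusted p = 0.0390) and Mir487b (0.34, adjusted p = 0.0226) were the other higher members in the exact binomial test.

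Among the 25 tested members, the 4 that differed more than 2-fold were all lower in replicate 2. Of all genes tested, 57 differed more than 2-fold (18.4%), but these were not split by direction. Mir341 had a log2 ratio of -1.67 (exact 95% interval -2.40 to -0.998, adjusted p = 1.49e-07), Mir369 of -1.36 (exact interval -2.02 to -0.75, adjusted p = 4.43e-06), Mir381 of -1.21 (exact interval -1.90 to -0.57, adjusted p = 0.00014) and Mir299a of -1.18 (exact interval -1.78 to -0.62, adjusted p = 2.03e-05). Mir337 was lower by less (-0.47, exact binomial test, adjusted p = 0.00322). Tested neighbours had smaller differences, of either sign. Mir411, next to Mir299a, had -0.13, and Mir409, close to Mir369, had -0.21 (exact binomial test, adjusted p = 0.466). Beside Mir341, Mir370 had -0.80 and did not pass. On the sides of Mir381, Mir300 had -0.65, which did not pass, and Mir487b had 0.34. GC content of the precursor and the log2 ratio were barely related over the 25 members (Spearman's rho -0.07, a description).

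Scaling mattered for the smaller differences. DESeq2's size factors moved the median log2 ratio over all genes tested from 0.01 to -0.14 and gave 1 higher and 9 lower members, where 60.2% of all genes passed and 26.9% were higher. Plain totals also gave 1 higher and 9 lower, with 63.1% of all genes passing and 31.7% higher. Under both, Mir431 and Mir487b no longer passed, while Mir127, Mir411 and Mir668 passed as lower. The call of Mir541 as higher and those of Mir299a, Mir337, Mir341, Mir369, Mir381 and Mir433 as lower were made under all 3 scalings.

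The filter left 12 members untested, with means from 0.293 to 5.75 CPM. With no filter beyond 1 count, 10 of the 37 members passed, where 30.2% of all genes did, and Mir323 (38 and 7 counts) and Mir665 (14 and 1 counts) were among the lower ones. Of the untested members, Mir495 (0.955 and 3.13 CPM) and Mir543 (1.43 and 3.13 CPM) had more than 2-fold higher levels in replicate 2, on 9 counts or fewer in each library. With a minimum count of 30, 8 of 18 members passed, against 70.9% of all genes. With strand ignored, 7 of 21 passed, 1 of them higher, against 60.4% of all genes, 31.6% of them higher.

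Of the defining microRNAs of heart muscle, Mir499 stood at 4787 and 3618 CPM and Mir208a at 1638 and 1074 CPM. All 7 listed heart muscle genes reached 1 CPM in both libraries. Mir1a-2 had 72.6 and 67.4 CPM, Mir208b had 41.8 and 22.2, and Mir133a-1 had only 1.43 and 1.04. Mir1a-1, at 2.15 and 3.13 CPM, and Mir133a-2, at 1.91 and 2.43, were also low but higher in replicate 2. Neurons are a known source of microRNAs of the Dlk1-Dio3 region, and 3 of 9 listed neuronal genes reached 1 CPM in both. The list summed to 358 CPM in replicate 1 and 234 in replicate 2, mostly Mir128-1 (240 and 155) and Mir137 (96.5 and 43.8). Mir9-3 went the other way, with 3 and 63 counts, and Mir124a-1, Mir124a-2 and Mir124a-3 were at 0 in both. The Mir124a, Mir9, Mir128, Mir1a and Mir133a genes each make one mature sequence from several loci, and reads that fitted more than one locus are missing from their values. The endothelial list summed to 176135 CPM in replicate 1 and 49984 in replicate 2, of which Mir126a made 174314 and 46780, whereas Mir221 had 1742 and 3079 and Mir222 had 78.8 and 124. The fibroblast list summed to 5305 and 3732, with 3091 and 976 CPM for Mir214 but 2199 and 2749 for Mir21a. The other genes of that list were low or absent. Mir199b had 10.5 and 5.56 CPM, Mir199a-2 had 4.78 and 0.695, and Mir199a-1 was at 0 in both. Reads that fitted several loci are missing from these values as well. The smooth muscle list had 32911 and 56334 and the skeletal muscle list 23.6 and 11.1. In the skeletal muscle list Mir206 fell from 16.2 to 3.82 CPM, on 68 and 11 counts, while Mir133b was level at 7.40 and 7.30. The part of these lists in the differences among members was not tested. In bulk tissue, fewer cells of a type and less RNA per cell cannot be told apart.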

How the data were processed

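The authors deposited 1 table of raw read counts per microRNA gene per library; its value columns count reads of either strand, of the gene's strand and of the other strand. Build mm10 and annotation M21 are named per the file headers of the deposited readme. The aligner is not given in the sources used here. Per the labels the libraries hold total RNA of heart. Each table's 4 rows of unassigned reads (unmapped 19.0% and 17.5%, several loci 42.4% and 43.2%, outside genes 6.94% and 7.11%, ambiguous 0% and 0% of 13233055 and 8930289 reads) stayed out of totals and tests.

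Counts on the strand of the gene were used. Symbols, positions and hosts came from GENCODE M21, and sequences from RefSeq or, for precursors and Rtl1, from M21 transcripts. Shares carry exact Clopper-Pearson intervals. TMM factors and the low-count filter (filterByExpr, minimum count 10) came from edgeR 4.0.16 in R 4.3.3. DESeq2 1.42.0 gave alternative size factors. The binomial tests were run in scipy 1.17.1 with a threshold of 0.05. They were tested on simulated data with known fold changes and counting error alone, so spread between samples was not covered. Members, lists and marker genes were chosen with earlier results of these data known. The rule named members with a mean of 10 CPM or more or past the test. Lower members given with values, such as Mir494, Mir758 and the Mir376 genes, were chosen after their values were seen. Sequences are given for the top 10 and for members with a shared seed.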

Additional observations from a re-analysis of the deposited data

How the results depend on the processing

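The members' share of microRNA gene counts, 0.211%, became 0.269% with strand ignored and 0.0674% with all reads as the denominator, and lay between 0.203% and 0.219% when either library was left out. The rise with strand ignored came with smaller totals, 2906600 counts in replicate 1 and 2307809 in replicate 2. The members themselves did not gain counts there, since 6 of them are then at 0. The number of members detected stayed between 24 and 37 over the alternatives, where the main value was 32. The count of members higher in replicate 2 fell from 3 to 1 with DESeq2 size factors, to 1 with plain totals and to 1 with strand ignored, whereas all members that differed numbered 7 to 10. The members' median log2 ratio moved from -0.14 to -0.28 with DESeq2 size factors and -0.21 with plain totals. The log2 ratio of the summed counts in the third segment turned from 0.03 to -0.12 with DESeq2 size factors and to -0.045 with plain totals, alternatives added after the data were seen. The members' median less that of all genes was -0.15 as reported, -0.28 with no filter, -0.17 with a minimum count of 30 and -0.10 with strand ignored. With no filter the members' median was -0.13, while that of all genes went from 0.01 to 0.15. That median covers only genes with a count in both libraries, since a count of 0 gives no ratio. Mir127 held 43.8% of the member counts with strand ignored, since 6 members are then at 0. Segments follow the gap chosen. With 20 kb the first and second merged to 53.3%, and with 5 kb the segment of Mir541 held 22.1% in place of 46.7%. Leaving out a library gave 41.3% to 41.5% for Mir127, 51.7% to 52.8% for the first segment, 0.582% to 1.51% for the second and 45.7% to 47.8% for the third. With 2 libraries, the between-library test could not be repeated without one of them. No paired analysis was possible because the design holds 1 group.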
